A study of Mus musculus with 8 samples.

Results

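T-box transcription factors were compared between cells isolated from lung, intestine and bladder of the mouse. The genes described are Tbx1, Tbx2, Tbx3, Tbx4, Tbx5, Tbx15, Tbx18 and Tbx20, taken by gene symbol, and all 8 were among the 21649 genes of the deposited table. RNA sequencing was done on 2 lung, 3 intestine and 3 bladder libraries of cells that the labels call non-vascular smooth muscle cells. How they were isolated is not given in the labels. Every library came from mice carrying Cspg4-Dre, Acta2-CreERT and R26-GFP and given tamoxifen into the abdomen (for 3 days, 0.75 mg per 10 g of mouse, in corn oil), so no group lacks these alleles or the drug. Dre and Cre are recombinases, here named after the genes whose control elements drive them, and tamoxifen activates CreERT. The labels give neither age nor the number of mice, and nothing in them says that libraries came from separate mice. The p-values thus reflect how far these particular libraries scatter, and that scatter may be technical.

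T-box factors bind DNA through a shared domain and set regional identity in the embryo, above all in limb, heart, lung and pharynx. Tbx4 and Tbx5 form a subfamily known from hindlimb and forelimb, and in the mouse both act in lung mesenchyme. Tbx2 and Tbx3 are mainly repressors that keep progenitors dividing, Tbx15 and Tbx18 are repressors of skeletal and mesenchymal progenitors, Tbx1 patterns the pharyngeal arches and Tbx20 the heart. Tbx2 and Tbx4 are neighbours on mouse chromosome 11, and Tbx3 and Tbx5 on chromosome 5.

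Values are normalized read counts. The spacing of the values gave 1 read as 0.822 to 1.27 of that unit, with the largest worth in bladder libraries. Acta2, smooth muscle actin, was at 2719 and 2630 in lung, 2454 to 2876 in intestine and 2323 to 2933 in bladder. With the deposited scaling undone it was higher in lung and intestine than in bladder, by log2 differences of 0.56 and 0.42 (limma, adjusted p = 0.000778 and 0.00164). Quantile normalization gave 0.31 and 0.29 (limma, adjusted p = 0.0252 and 0.0142). Myh11, smooth muscle myosin, was at 10795 and 10378 in lung, 11371 to 12454 in intestine and 4423 to 6099 in bladder. Summed values of 8 smooth muscle genes made up 2657 and 2678 ppm (of the library's summed values) in lung, 2464 to 2664 ppm in intestine and 1543 to 1874 ppm in bladder. Cspg4, which drives Dre, was at 4757 and 4045 in lung, 4220 to 4617 in intestine and 387 to 433 in bladder. The 8 fibroblast genes also stood at 2063 and 2322 ppm in lung, 3028 to 3261 ppm in intestine and 4593 to 5015 ppm in bladder, so RNA of genes marking other cells was present in all groups. In such bulk samples, fewer cells of a type and less RNA per cell cannot be told apart, and the part of other cell types in the results was not tested.

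Levels of the family differed between the organs. Lung libraries combined high Tbx4 and Tbx5 with high Tbx2. Intestine libraries had no reads of Tbx5 or Tbx18 and little Tbx4, but the highest Tbx1. Bladder libraries had intermediate Tbx4 and Tbx5 and the highest Tbx3 and Tbx20. In the F test over 3 tissues (limma on log2(value + 1), Benjamini-Hochberg adjustment over 18097 genes, threshold 0.05), 7 of the 8 genes passed, all but Tbx15, beside 62.9% of all genes tested.

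In lung against intestine, 5 of the 8 passed, beside 39.5% of all genes, with 4 higher (15.9% of all genes) and 1 lower (23.6%). In lung against bladder 6 passed, beside 41.0%, with 3 higher (19.2%) and 3 lower (21.8%). In intestine against bladder 7 passed, beside 51.9%, with 2 higher (28.7%) and 5 lower (23.3%). All 8 had passed the filter on low values. Comparisons with the same tissue share its libraries. The balance of all genes depended on scaling. As deposited, 2882 genes were higher and 4275 lower in lung than in intestine, 3466 and 3952 in lung than in bladder, and 5185 and 4210 in intestine than in bladder. With the deposited scaling undone these splits were 3683 and 3553, 7958 and 1897, and 8327 and 1926, and the median log2 difference of all genes was 0.48 for lung minus bladder and 0.45 for intestine minus bladder, in place of 0 and 0.06. Quantile normalization gave 4822 and 3580 in the first pair and 4258 and 5547 in the third, and equal totals gave 4562 and 3234 in the second. Each difference below is to be read relative to such a shift.

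**Figure D1:**
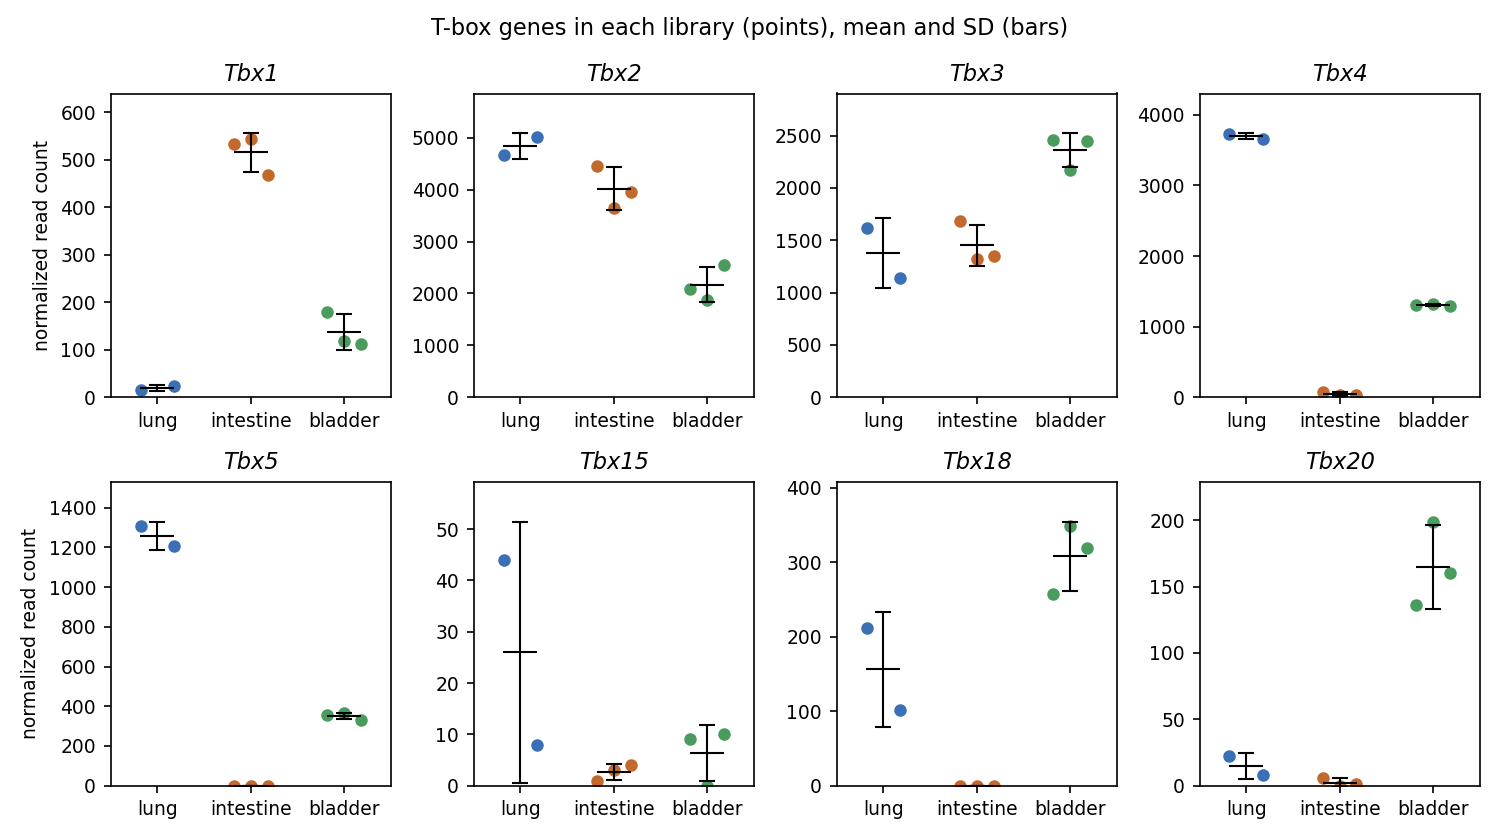
Normalized read count of each T-box gene (y axes, linear, each starting at 0) in lung, intestine and bladder; points are libraries, long dashes means and bars SD (n = 2, 3 and 3). Tbx4 and Tbx5 are highest in both lung libraries, Tbx1 in all 3 intestine libraries, and Tbx3 and Tbx20 in all 3 bladder libraries.

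**Figure D2:**
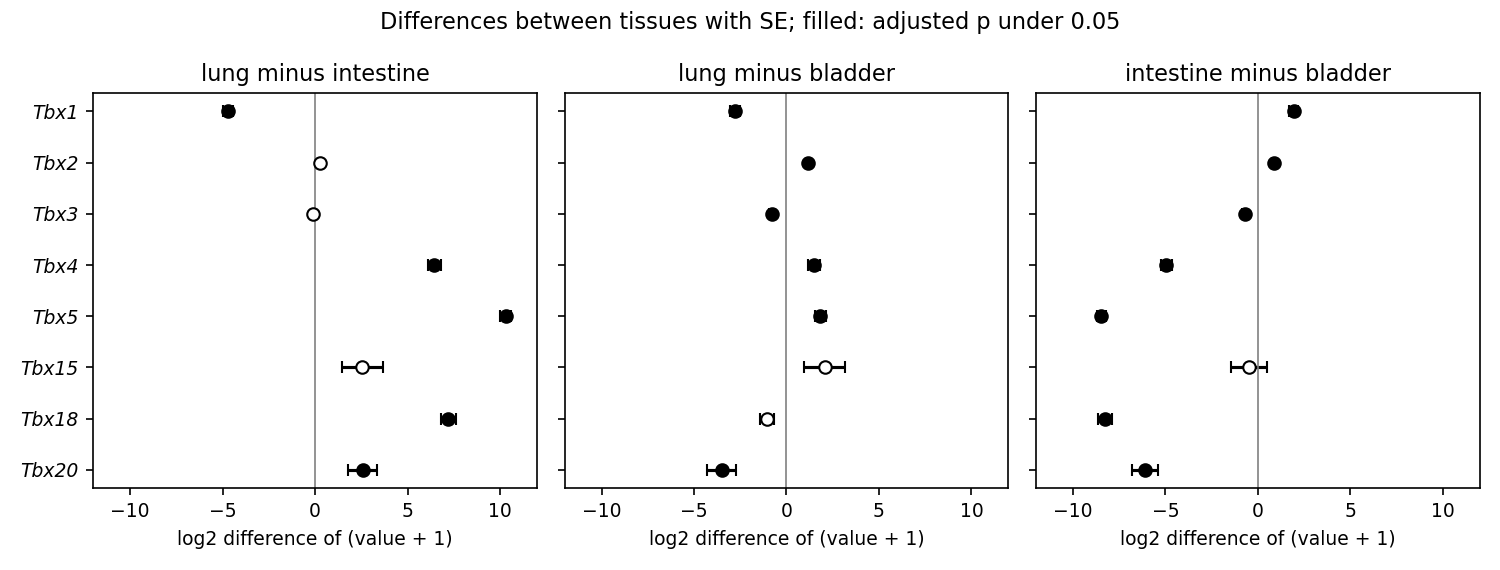
Log2 differences of (value + 1) with standard error for each T-box gene in the 3 pairs of tissues; filled points passed limma's test at an adjusted p of 0.05 and open points did not. Tbx5 spans the widest range, from 10.30 for lung minus intestine to -8.46 for intestine minus bladder.

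Start-site sequence is shown for 3 genes with contrasting patterns, Tbx4 and Tbx18 with few or no reads in intestine and Tbx1 highest there. RefSeq (GRCm38.p6) gave promoters for 4 of the 8 genes, and the 250 bases before the start are printed 5′ to 3′, with the core GGTGT of the T-box element in capitals on either strand.
Tbx4, chr11:85896515-85896764, plus strand: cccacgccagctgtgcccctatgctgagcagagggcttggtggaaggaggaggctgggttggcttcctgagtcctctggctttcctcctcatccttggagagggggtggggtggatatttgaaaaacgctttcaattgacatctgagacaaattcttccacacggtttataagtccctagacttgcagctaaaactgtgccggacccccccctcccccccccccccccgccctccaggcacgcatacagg
Tbx18, chr9:87731261-87731510, minus strand: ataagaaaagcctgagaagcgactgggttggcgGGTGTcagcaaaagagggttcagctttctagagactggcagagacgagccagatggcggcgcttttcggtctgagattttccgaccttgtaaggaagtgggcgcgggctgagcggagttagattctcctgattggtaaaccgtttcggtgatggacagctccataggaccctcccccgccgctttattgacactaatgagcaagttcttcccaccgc
Tbx1, chr16:18590672-18590921, minus strand: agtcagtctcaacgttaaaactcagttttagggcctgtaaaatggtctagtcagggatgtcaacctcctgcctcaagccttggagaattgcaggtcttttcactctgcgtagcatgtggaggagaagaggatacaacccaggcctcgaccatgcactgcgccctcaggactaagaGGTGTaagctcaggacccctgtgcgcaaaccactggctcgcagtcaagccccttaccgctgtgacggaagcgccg
The core occurred once each in the Tbx18 window and the Tbx1 window shown and not in the Tbx4 window. A second Tbx1 window, at chr16:18588900-18589149, held no core, with 67.2% G and C and 17 CG pairs, and and 36.2% of 32851 RefSeq promoters held it in the same 250 bases. The T-box half-site AGGTGTGA, or its reverse complement TCACACCT, contains the core. It was in 1.28% of those promoters taken over 300 bases and in none of the 5 windows of T-box genes matched. Only the core and this half-site were searched for. G and C made up 58.4% of the Tbx4 window, 54% of the Tbx18 window and 54.4% of the Tbx1 window, and CG pairs numbered 6, 15 and 10 in that order of genes.

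Tbx5, which forms the lung and limb pair with Tbx4, had the widest differences of the T-box genes described. Tbx5 (chromosome 5, 119970733 to 120023284, mm39, plus strand) was at 1309 and 1209 in lung, at 0 in each of the 3 intestine libraries, and at 358, 364 and 333 in bladder. Groups did not overlap, and no intestine library had a read. Tbx5 was at least 458-fold higher in lung than in intestine and at least 128-fold lower in intestine than in bladder, against a floor of 3 reads per library. It was also higher in lung than in bladder, by 1.84 (SE 0.28) on the log2 scale (limma, adjusted p = 0.000651). The summed level of 9 cardiac muscle genes was highest in lung too, at 560 and 476 ppm. It was 64.8 to 70.3 ppm in intestine and 45.9 to 59.4 ppm in bladder, so these 2 tissues had another order than for Tbx5. Ryr2 of that list was highest in intestine. The part of cardiac muscle in the Tbx5 level was not tested.

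Tbx4 (chromosome 11, 85777248 to 85806923, mm39, plus strand) was at 3728 and 3664 in lung, 73, 35 and 27 in intestine, and 1299, 1325 and 1292 in bladder. Unlike Tbx5, it kept some reads in every intestine library. Its log2 difference was 6.46 (SE 0.33) for lung minus intestine, 1.50 (SE 0.33) for lung minus bladder and -4.96 (SE 0.29) for intestine minus bladder (limma, adjusted p = 9.75e-07, 0.00537 and 1.51e-06). Tbx4 exceeded 99.0% of detected genes in lung by its mean, but 35.9% in intestine. In lung it had 1.33 and 1.24 reads per nt of exon. Genes with an average of 1 read or more per nt over all libraries numbered 339. Their median for lung minus bladder was -0.42 on the log2 scale. Tbx4 reached that density in lung only and had 0.30 to 0.35 reads per nt in bladder. The part of read density in the Tbx4 difference was not tested.

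Tbx2 was the most abundant member per exon length in every library, and it was higher in lung and intestine than in bladder. Tbx2 (chromosome 11, 85723377 to 85732774, mm39, plus strand) was at 4667 and 5021 in lung, 4465, 3648 and 3955 in intestine, and 2087, 1880 and 2553 in bladder. No bladder library reached the lowest lung or intestine library. The summed level of 8 genes marking vascular smooth muscle and pericytes had the same pattern, at 2196 and 1898 ppm in lung, 2176 to 2285 ppm in intestine and 777 to 809 ppm in bladder, with no gene at 0, although the cells are labelled non-vascular. Pdgfrb and Abcc9 of that list did not have it, with Pdgfrb at 6911 and 5414 in lung, 5337 to 6010 in intestine and 6692 to 6985 in bladder. Notch3, a receptor of vascular muscle, was at 3707 and 3932 in lung, 4612 to 4830 in intestine and 273 to 347 in bladder. Tbx2 had 1.57 and 1.60 reads per nt of exon in lung, 1.14 to 1.34 in intestine and 0.41 to 0.64 in bladder. The median of the 339 genes dense in reads was -0.42 for lung minus bladder and -0.40 for intestine minus bladder. The part of vascular cells and that of read density in the Tbx2 level were not tested. The log2 difference was 1.17 (SE 0.13) for lung minus bladder and 0.89 (SE 0.11) for intestine minus bladder (limma, adjusted p = 9.6e-05 and 0.000153). For lung minus intestine it was 0.27 (SE 0.13) and missed the threshold (adjusted p = 0.121), although limma voom on reconstructed reads gave 0.0186.

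Tbx3, the paralog of Tbx2, ran the other way. Tbx3 (chromosome 5, 119808734 to 119822789, mm39, plus strand) was at 1614 and 1139 in lung, 1680, 1325 and 1348 in intestine, and 2458, 2174 and 2453 in bladder. Lung and intestine libraries overlapped each other and all lay below the bladder libraries. The log2 difference was -0.80 (SE 0.16) for lung minus bladder and -0.71 (SE 0.14) for intestine minus bladder (limma, adjusted p = 0.0029 and 0.00206). For lung minus intestine it was -0.09 (SE 0.16, adjusted p = 0.682). With the deposited scaling undone the first pair of differences was -0.29 and -0.31 and neither passed (adjusted p = 0.214 and 0.130).

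Tbx1 was the member highest in intestine. Tbx1 (chromosome 16, 18399729 to 18409421, mm39, minus strand) was at 15 and 23 in lung, 533, 545 and 469 in intestine, and 180, 118 and 111 in bladder. The 3 tissues did not overlap. Its log2 difference was -4.72 (SE 0.28) for lung minus intestine, -2.77 (SE 0.28) for lung minus bladder and 1.94 (SE 0.25) for intestine minus bladder (limma, adjusted p = 2e-06, 5.92e-05 and 0.000162). In the mouse Tbx1 also acts in lymphatic endothelium, where it regulates Flt4, a receptor for lymphatic growth factors. The summed level of 6 lymphatic endothelial genes had the same order of tissues, at 121 and 179 ppm in lung, 1101 to 1302 ppm in intestine and 503 to 707 ppm in bladder. Prox1, Lyve1, Flt4 and Mmrn1 each had that order, whereas Pdpn was at 593 to 751 in intestine and 2166 to 2295 in bladder, and Ccl21a at 495 to 542 in intestine and 542 to 657 in bladder. Their part in the Tbx1 difference was not tested. None of the 6 was at 0 throughout a tissue.

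Tbx18, known from ureter muscle progenitors and the epicardium, was absent from the reads of intestine. Tbx18 (chromosome 9, 87584853 to 87613313, mm39, minus strand) was at 211 and 102 in lung, 0 in each intestine library, and 257, 348 and 319 in bladder. It was at least 57.0-fold higher in lung than in intestine and at least 112-fold lower in intestine than in bladder. Both lung libraries lay below every bladder library, but the log2 difference of -1.05 (SE 0.40) missed the threshold (limma, adjusted p = 0.0647), and without lung replicate 1 it was -1.57 and passed (adjusted p = 0.0235). It also passed with pseudocount 5, with the stricter filter and with limma voom (adjusted p = 0.0324, 0.0475 and 0.0227). D030062O11Rik, a transcript whose coding status is unsettled in the annotation, overlaps Tbx18 on the other strand and was at 15 and 14 in lung, 0 in intestine, and 30, 30 and 20 in bladder. Without strand, reads of the overlap cannot be told apart. Mesothelial genes, 8 in the list, summed to 54.5 and 115 ppm in lung, 239 to 274 ppm in intestine and 371 to 529 ppm in bladder. The intestine sum was mostly Krt19, which epithelium also makes, at 156 and 350 in lung, 2244 to 2476 in intestine and 1359 to 1928 in bladder. Wt1, a defining mesothelial factor, was at 25 and 35 in lung, 11 to 24 in intestine and 84 to 117 in bladder, the order of Tbx18. By their means Msln and Upk1b had that order too. Upk1b is also in the list of urothelial genes, and was at 116 and 249 in lung, 107 to 127 in intestine and 1569 to 2232 in bladder. Upk3b, Lrrn4, Muc16 and Bnc1 did not, and averaged more in intestine than in lung. The part of mesothelium in the Tbx18 level was not tested.

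Tbx20 was a bladder gene in these libraries. Tbx20 (chromosome 9, 24629434 to 24685599, mm39, minus strand) was at 22 and 8 in lung, 6, 0 and 1 in intestine, and 136, 199 and 160 in bladder. All bladder libraries stood above every other library. The log2 difference was -3.51 (SE 0.77) for lung minus bladder and -6.09 (SE 0.69) for intestine minus bladder (limma, adjusted p = 0.00555 and 7.24e-05). The first of these was lost without lung replicate 2, at -2.83 (adjusted p = 0.0559). Lung minus intestine was 2.58 (SE 0.77, adjusted p = 0.0257), which was lost without lung replicate 1 (1.90, adjusted p = 0.154), without intestine replicate 2 (1.94, 0.0740), without intestine replicate 3 (2.44, 0.0777) and in a fit of these tissues only (0.0807). Cardiac muscle genes, 9 in the table, ran in another order, at 560 and 476 ppm in lung, 64.8 to 70.3 ppm in intestine and 45.9 to 59.4 ppm in bladder. Myh6, the atrial myosin, was at 897 and 279 in lung, 1 to 3 in intestine and 0 to 3 in bladder. Tnnt2, cardiac troponin T, was at 1318 and 1268 in lung, 239 to 250 in intestine and 384 to 524 in bladder, and the atrial light chain Myl4 at 388 and 360 in lung, 137 to 157 in intestine and 89 to 99 in bladder. Ryr2 of that list was instead highest in intestine, at 153 and 123 in lung, 244 to 269 in intestine and 2 to 19 in bladder. The part of cardiac muscle in the Tbx20 level was not tested.

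Tbx15, known in the mouse from skeletal development and muscle fibre type, was near the floor. It was at 44 and 8 in lung, 1, 3 and 4 in intestine, and 9, 0 and 10 in bladder (chromosome 3, 99147697 to 99261575, mm39, plus strand). The lung libraries lay far apart, and lung overlapped bladder. Lung minus intestine was 2.56 (SE 1.10, limma adjusted p = 0.0941), lung minus bladder 2.07 (SE 1.10, 0.165) and intestine minus bladder -0.49 (SE 0.98, 0.703). Leaving out bladder replicate 2 brought the first to an adjusted p of 0.0292 and the F test to 0.0439, and pseudocount 5, quantile normalization and the replicate block brought the first to 0.0440, 0.0332 and 0.0420.

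Levels per kb of exon (GENCODE M21 lengths) put Tbx2 first in each tissue, followed by Tbx4 in lung and bladder and by Tbx3 in intestine. In lung, Tbx2 was at 1336 ± 69.0 and Tbx4 at 1087 ± 13.3 per kb (SD, n = 2). Tbx5 followed at 269 ± 15.1 and Tbx3 at 208 ± 50.7, next to Tbx18 at 33.2 ± 16.3, Tbx15 at 6.94 ± 6.79, Tbx1 at 5.40 ± 1.61 and Tbx20 at 1.25 ± 0.825. The Tbx15 level lay within its own spread of both Tbx1 and Tbx20.

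In intestine, Tbx2 was at 1109 ± 114 per kb, Tbx3 at 219 ± 30.0 and Tbx1 at 147 ± 11.6 (SD, n = 3). Tbx4 was at 13.2 ± 7.23, Tbx15 at 0.712 ± 0.408 and Tbx20 at 0.194 ± 0.268, which overlapped between libraries, with Tbx5 and Tbx18 at 0. In bladder, Tbx2 was at 599 ± 95.1 per kb, and Tbx4 at 384 ± 5.11 and Tbx3 at 357 ± 24.5 were separated by about their spread (SD, n = 3). Tbx5 at 75.2 ± 3.52 and Tbx18 at 65.3 ± 9.85 lay as close. Tbx1 was at 38.8 ± 10.8, Tbx20 at 13.8 ± 2.65 and Tbx15 at 1.69 ± 1.47.

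**Figure D3:**
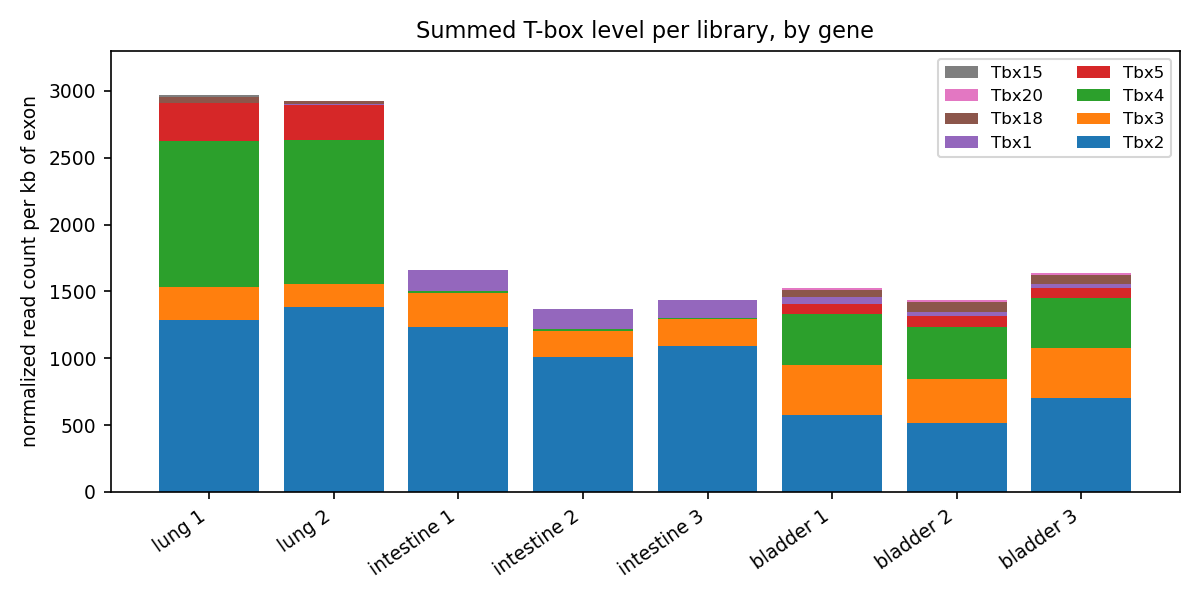
Summed level of the 8 T-box genes in each library (y axis, normalized read count per kb of exon, from 0), with each gene as a segment. The lung bars reach 2969 and 2924, against 1372 to 1659 in intestine and 1438 to 1641 in bladder, and the Tbx4 segment is wide in lung and bladder and nearly missing in intestine.

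Summed over the family, levels per kb were 2969 and 2924 in lung, 1659, 1372 and 1437 in intestine, and 1525, 1438 and 1641 in bladder. Lung libraries lay above the rest, and intestine and bladder overlapped. Tbx2 made up 43.3% and 47.4% of the sum in lung, 73.3% to 75.9% in intestine and 36.1% to 42.9% in bladder. Tbx4 made up 36.9% and 36.8% in lung, 0.553% to 1.29% in intestine and 23.2% to 27.1% in bladder. Tbx1 held 0.144% and 0.224% in lung, 9.14% to 11.3% in intestine and 1.92% to 3.36% in bladder.

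Ratios of 2 genes within a library do not depend on how that library was scaled, apart from the pseudocount. The log2 ratio of the chromosome 11 neighbours, Tbx2 over Tbx4, was 0.32 and 0.45 in lung, 5.92, 6.66 and 7.14 in intestine, and 0.68, 0.50 and 0.98 in bladder. That of the chromosome 5 neighbours, Tbx3 over Tbx5, was 0.30 and -0.09 in lung, 10.72, 10.37 and 10.40 in intestine, and 2.78, 2.58 and 2.88 in bladder. The intestine ratios rest on Tbx5 at 0 and so on the pseudocount. In both neighbour pairs the Tbx2 or Tbx3 gene was thus read at high level beside a partner that was low or unread in intestine.

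Among paralogs, Tbx4 over Tbx5 was 1.51 and 1.60 in lung, 6.21, 5.17 and 4.81 in intestine, and 1.86, 1.86 and 1.95 in bladder. The lung and bladder ratios lay between 1.51 and 1.95, lung below bladder, and intestine lay well above both. Tbx2 over Tbx3 was 1.53 and 2.14 in lung, 1.41, 1.46 and 1.55 in intestine, and -0.24, -0.21 and 0.06 in bladder. Tbx15 over Tbx18 was -2.24 and -3.52 in lung, 1.00 to 2.32 in intestine and -8.45 to -4.69 in bladder, where the intestine ratios compare genes at or near 0. All 5 ratios differed over the tissues in an exact permutation test of 560 assignments (adjusted p = 0.00714 over the 5 pairs for each, the smallest unadjusted p possible being 0.00357).

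**Figure D4:**
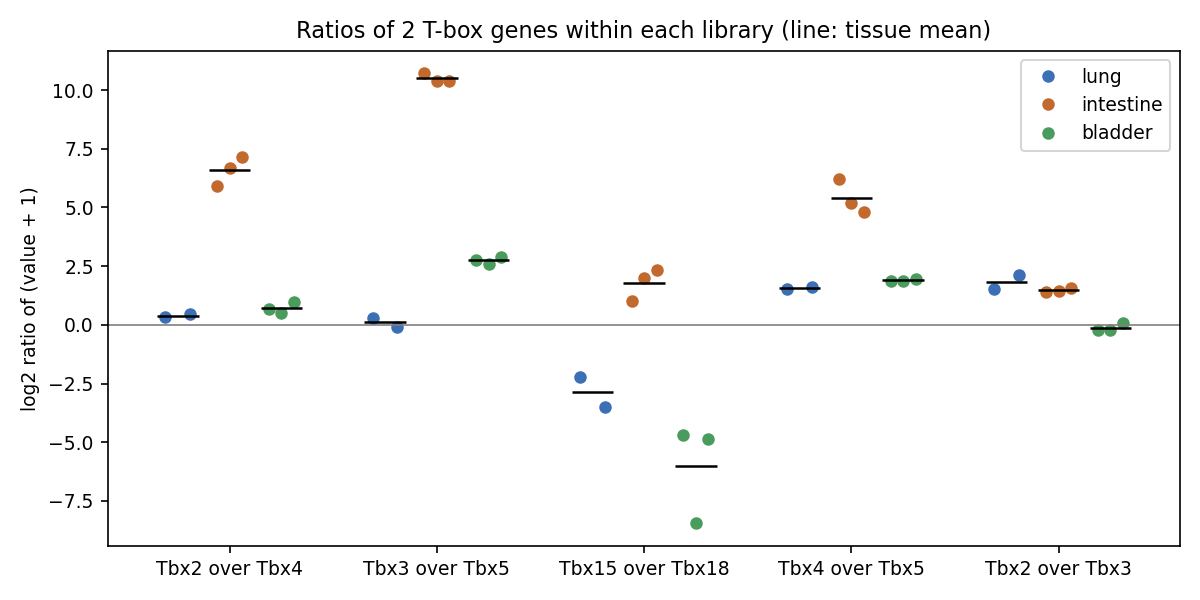
Log2 ratio of (value + 1) for 5 pairs of T-box genes within each library, points coloured by tissue, with the tissue mean as a line and 0 marking equal values. Intestine libraries stand apart for Tbx2 over Tbx4 and Tbx3 over Tbx5, and bladder libraries for Tbx2 over Tbx3.

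The noncoding genes closest to Tbx2, Tbx3 and Tbx5 were read as well. Those that overlap a T-box gene were named by rule and the others after their values were seen. Gm43050 starts 633 bp from Tbx5 on the other strand. It was at 534 and 469 in lung, 0, 0 and 1 in intestine, and 198, 205 and 235 in bladder, the same order of tissues as Tbx5. Lung minus intestine was 8.64 (SE 0.40) and intestine minus bladder -7.40 (SE 0.35) on the log2 scale (limma, adjusted p = 5.81e-07 and 5.67e-07). Lung minus bladder was 1.23 (SE 0.40, adjusted p = 0.0328) and was lost when any 1 lung or bladder library was left out (adjusted p = 0.0584 to 0.129).

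2610027K06Rik lies 251 bp from Tbx2 on the other strand and was at 195 and 165 in lung, 162, 111 and 128 in intestine, and 52, 70 and 75 in bladder. Like Tbx2 it was higher in lung and intestine than in bladder, by 1.45 (SE 0.27) and 1.01 (SE 0.24), with limma adjusted p of 0.00219 and 0.00602, but 0.434 for the second with quantile normalization. Beside Tbx3, 1 noncoding gene had another order of tissues than the coding gene. Tbx3os1, which overlaps Tbx3 by 840 bp on the other strand, was at 120 and 97 in lung, 336, 248 and 238 in intestine, and 100, 131 and 170 in bladder. It was lower in lung than in intestine by a log2 difference of -1.32 (SE 0.27) and higher in intestine than in bladder by 1.05 (SE 0.24, limma adjusted p = 0.00398 and 0.00526, the second 0.0894 with quantile normalization).

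Tbx3os2, 371 bp from the other end of Tbx3, was at 0 in both lung libraries, 1, 6 and 11 in intestine, and 95, 99 and 96 in bladder. It was at least 38.2-fold lower in lung than in bladder, and intestine minus bladder was -4.15 (SE 0.62, limma adjusted p = 0.000398). Like Tbx3, it was highest in bladder. Another lncRNA that overlaps Tbx3 by 190 bp, known only by its Ensembl ID, was at 3 to 19 in all libraries and passed in no pair. Reads in the overlaps cannot be told apart, since the library kit does not mark strand. The coding neighbour Bcas3, 6493 bp from Tbx2, was at 1316 and 1169 in lung, 1243 to 1354 in intestine and 1171 to 1233 in bladder, and passed in no pair.

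**Figure D5:**
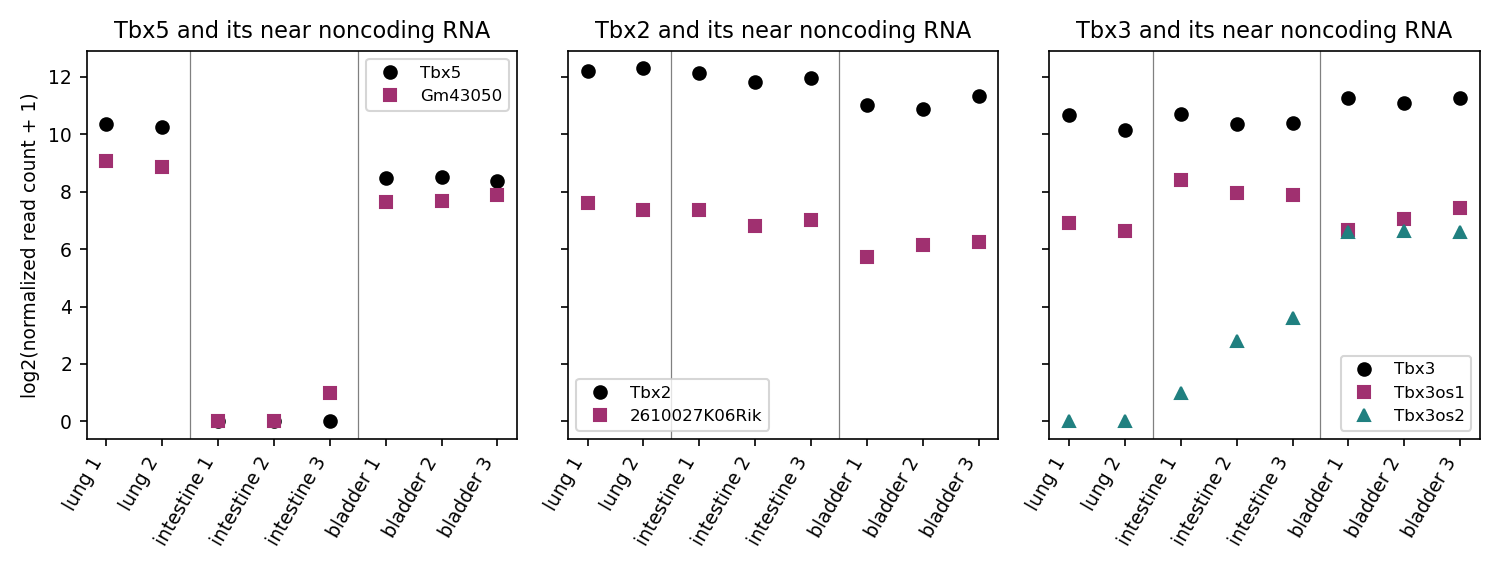
Log2(normalized read count + 1) of Tbx5, Tbx2 and Tbx3 and of the noncoding genes beside them in each library. Gm43050 is high where Tbx5 is high, in lung and bladder, whereas Tbx3os2 reads stand at 95 to 99 in bladder and at 0 to 11 elsewhere.

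Of the other T-box genes listed, 4 were in the table and 2 could be tested. Mga, a large T-box protein that pairs with Max, was at 541 and 353 in lung, 499, 585 and 552 in intestine, and 719, 613 and 865 in bladder. It was lower in lung than in bladder by a log2 difference of -0.73 (SE 0.20, limma adjusted p = 0.0166), but -0.22 with the deposited scaling undone (adjusted p = 0.486). That call was also lost without lung replicate 2 (-0.42, adjusted p = 0.124), without bladder replicate 3 (-0.60, 0.0563) and in a fit of lung and bladder only (0.0929). Tbx6, a gene of early mesoderm, was at 28 and 16 in lung, 15 to 29 in intestine and 20 to 33 in bladder and passed in no pair. Tbx21 reached 38 in intestine library 3 and Tbr1 13 in lung library 2, and both stood at 5 or less in every other library.

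Partners of T-box factors were counted next. Of 21 tested partners and corepressors, 6 were higher and 9 lower in lung than in intestine, beside 39.5% of all genes called, with a median log2 difference of 0.02 against -0.04 for all genes. The split was 6 higher and 4 lower in lung against bladder, and 9 higher and 7 lower in intestine against bladder, beside 41.0% and 51.9% of all genes called. Undoing the deposited scaling turned these splits into 12 and 3, and 12 and 4. The medians of these pairs were -0.06 and 0.24, against 0 and 0.06 for all genes.

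The GATA factors, which bind DNA together with T-box proteins in the heart, divided. Gata5 was at 1581 and 1499 in lung, 558, 442 and 420 in intestine, and 1769, 1487 and 1926 in bladder. Gata6 was at 2063 and 1602 in lung, 744, 781 and 861 in intestine, and 1977, 2089 and 1927 in bladder. Both were lower in intestine than in bladder, with log2 differences of -1.87 (SE 0.13) and -1.33 (SE 0.10), whereas Gata4 was higher by 3.98 (SE 0.18) (limma, adjusted p = 3.73e-06, 7.03e-06 and 4.61e-07). The low Gata5 and Gata6 and the low Tbx4 were thus in the same 3 libraries.

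Hand2, a mesenchymal helix-loop-helix factor, was at 4 and 20 in lung, 370, 380 and 372 in intestine, and 287, 249 and 305 in bladder. Isl1, a LIM homeobox factor upstream of Tbx4 in the hindlimb of the mouse, was at 2 and 10 in lung, 135, 83 and 69 in intestine, and 370, 298 and 314 in bladder. Both were lower in lung than in bladder, by -4.77 (SE 0.48) and -5.83 (SE 0.52) on the log2 scale (limma, adjusted p = 6.12e-05 and 2.83e-05). Smarcd3, the chromatin remodelling subunit that works with Tbx5 in the heart, was at 1594 and 1560 in lung, 1589, 1309 and 1388 in intestine, and 628, 660 and 705 in bladder. It was higher in lung than in bladder by 1.25 (SE 0.10, limma adjusted p = 1.74e-05). Mef2c, a muscle transcription factor, was at 1888 and 1168 in lung, 4153, 3366 and 3206 in intestine, and 498, 400 and 422 in bladder, and was higher in intestine than in bladder by 3.02 (SE 0.18, adjusted p = 1.42e-06).

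Of 24 genes known to act upstream of T-box genes, 4 were higher and 9 lower in lung than in intestine, 7 higher and 13 lower in lung than in bladder, and 11 higher and 9 lower in intestine than in bladder. The shares of all genes called in these pairs were 39.5%, 41.0% and 51.9%. The second count was 8 and 9 with the deposited scaling undone. The median log2 differences were -0.24, -0.55 and -0.22, against -0.04, 0 and 0.06 for all genes. Pitx1, which activates Tbx4 in the hindlimb, was at 2 and 4 in lung, 320, 327 and 262 in intestine, and 1665, 1563 and 1839 in bladder. The lung libraries, highest in Tbx4, were thus the lowest in Pitx1, by -8.77 (SE 0.24) against bladder and -6.29 (SE 0.24) against intestine (limma, adjusted p = 5.44e-08 and 2.85e-07).

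Hox genes of groups 4 and 5 activate Tbx5 in the forelimb of the mouse. Hoxb5 was at 1055 and 1093 in lung, 463, 545 and 534 in intestine, and 10, 5 and 12 in bladder. Hoxb4 was at 251 and 421 in lung, 130, 149 and 165 in intestine, and 4, 6 and 5 in bladder, and Hoxa5 at 574 and 815 in lung, 462 to 508 in intestine and 31 to 53 in bladder. All 3 were higher in intestine than in bladder, by 5.76 (SE 0.28), 4.64 (SE 0.30) and 3.59 (SE 0.23), while Tbx5 had no reads in intestine and 333 to 364 in bladder (limma, adjusted p = 6.35e-07, 2.54e-06 and 2.09e-06). Hoxb5 was also higher in lung than in intestine by 1.07 (SE 0.32, adjusted p = 0.0248), but missed the threshold when any 1 lung or intestine library was left out (0.0642 to 0.110). Hoxc4 and Hoxc5 were lower in lung than in intestine, at 7 and 22 against 238 to 253 and at 8 and 5 against 189 to 191 (limma, adjusted p = 0.000244 and 0.000166).

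Bmp2, a BMP ligand that induces Tbx2 in the heart, was at 539 and 569 in lung, 2590, 2538 and 2713 in intestine, and 1043, 1046 and 1174 in bladder. It was lower in lung than in intestine by -2.24 (SE 0.09) and higher in intestine than in bladder by 1.27 (SE 0.08), with limma adjusted p of 2.85e-07 and 1.66e-06. Foxc2, a forkhead factor that regulates Tbx1, was at 710 and 602 in lung, 236, 256 and 209 in intestine, and 137, 105 and 139 in bladder. It was therefore highest where Tbx1 was lowest, with a log2 difference of 1.49 for lung minus intestine (SE 0.19, limma adjusted p = 0.000248). Gli1, a hedgehog effector, was lower in intestine than in bladder, at 326 to 426 against 1032 to 1183 (log2 difference -1.49, SE 0.14, adjusted p = 2.21e-05).

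Of 22 tested genes known as T-box targets, 8 were higher and 9 lower in lung than in intestine, and 8 were higher and 8 lower in each of the other pairs. Beside them, 39.5% of all genes were called in lung against intestine, 41.0% in lung against bladder and 51.9% in intestine against bladder. For lung against bladder the balance was 11 and 7 with the deposited scaling undone. The median log2 differences were -0.35, -0.01 and -0.28, in the order lung minus intestine, lung minus bladder and intestine minus bladder, against -0.04, 0 and 0.06 for all genes. Wnt2, a lung WNT ligand that depends on Tbx5 in the mouse embryo, was at 145 and 335 in lung, 296, 318 and 336 in intestine, and 3058, 3019 and 2988 in bladder. Its highest tissue was thus bladder and not lung, with a log2 difference of -3.77 (SE 0.27) for lung minus bladder and -3.25 (SE 0.25) for intestine minus bladder (limma, adjusted p = 9.1e-06 and 5.91e-06). Fgf10, the branching signal downstream of Tbx4 and Tbx5, was at 198 and 129 in lung, 50, 31 and 70 in intestine, and 178, 245 and 153 in bladder, and is added here outside the rule for named genes.

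Frzb and Shisa3 are WNT antagonists repressed by Tbx2 and Tbx3 in mouse lung mesenchyme. Frzb was at 97 and 164 in lung, 296, 337 and 299 in intestine, and 1523, 2010 and 1817 in bladder. Shisa3 was at 263 and 520 in lung, 1374, 1766 and 1714 in intestine, and 104, 146 and 167 in bladder. In intestine against bladder Frzb was lower by -2.51 (SE 0.19) and Shisa3 higher by 3.55 (SE 0.26), with limma adjusted p of 6.24e-06 and 4.99e-06. The members of this pair therefore moved in opposite directions between the same libraries.

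Osr1, a mesenchymal zinc finger gene that Tbx5 regulates in the heart, was at 2397 and 2357 in lung, 802, 909 and 869 in intestine, and 3834, 3976 and 3636 in bladder. It was higher in lung than in intestine by 1.47 (SE 0.08) and lower in intestine than in bladder by -2.15 (SE 0.07), with limma adjusted p of 1.15e-06 and 1.14e-07. Like Tbx5 and Tbx4 it was lowest in intestine. Smad6, an inhibitor of BMP signalling, was at 2741 and 2675 in lung, 1124, 1022 and 1236 in intestine, and 1265, 1185 and 1536 in bladder, and was higher in lung than in bladder by 1.04 (SE 0.12, limma adjusted p = 0.000148).

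Flt4 and Gja5 are also made by endothelium. Flt4 was at 58 and 48 in lung, 2246, 3181 and 3228 in intestine, and 843, 442 and 560 in bladder, the order of Tbx1. Its log2 difference was -5.73 (SE 0.26) for lung minus intestine and -3.47 (SE 0.26) for lung minus bladder (limma, adjusted p = 5.81e-07 and 1.08e-05). Gja5 was at 351 and 461 in lung, 648, 612 and 558 in intestine, and 90, 78 and 46 in bladder. The 8 endothelial genes summed to 571 and 634 ppm in lung, 946 to 1120 ppm in intestine and 354 to 461 ppm in bladder, the order of tissues that Gja5 also had. By their means Pecam1, Cdh5, Vwf, Cldn5 and Erg had that order, whereas Kdr, Tek and Emcn averaged less in lung than in bladder. Tek was at 731 and 484 in lung, 1428 to 1801 in intestine and 2009 to 2254 in bladder. Cdh1, an epithelial cadherin that T-box repressors silence in cultured cells, was at 64 and 35 in lung, 2732, 2684 and 2450 in intestine, and 303, 252 and 481 in bladder, beside intestinal epithelial genes at 53.0 and 30.8 ppm in lung, 754 to 835 ppm in intestine and 47.8 to 54.5 ppm in bladder. Of those 8 genes Cdx1 and Cdx2 were at 0 in lung, and Cdx1, Cdx2 and Alpi in bladder. Most of the lung and bladder sums was Lgr5, at 556 and 265 in lung, 359 to 404 in intestine and 444 to 559 in bladder. The part of these cells was not tested.

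The T-box half-site was found by its letters in the RefSeq windows of 2 listed genes, among 65 windows of 50 genes. Of all RefSeq promoters, 1.28% held it over the same 300 bases. Both genes are known targets and are shown because the half-site is matched there, in capitals, with its flanks.
Cdkn1a, chr17:29093772-29093799, plus strand: agcagccgagAGGTGTGAgccgccgcgg
Nppa, chr4:148000472-148000489, plus strand: TCACACCTttgaagtggg
Cdkn1a encodes the cell cycle inhibitor p21, which Tbx2 and Tbx3 repress, and was at 1724 and 2247 in lung, 2666, 2452 and 2568 in intestine, and 1943, 2448 and 2362 in bladder. Nppa, the atrial natriuretic peptide gene that Tbx5 activates and Tbx2 represses in the heart, was at 31 and 10 in lung, 0 in intestine, and 0, 1 and 0 in bladder, beside the cardiac genes that were high in lung. The Cdkn1a match began 13 bp after the start, outside the 250 bases before it, and the other Cdkn1a window held none. A match of letters is a description and shows no binding.

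Genes with the most similar profiles over the 8 libraries were found by the root mean square difference of centred log2 values among 13461 genes. These candidates averaged at least 50 in 1 tissue or more. Genes with provisional names (such as Gm and Rik), pseudogenes and the 8 T-box genes described were left out. Closest to Tbx2 were Macrod1 (0.09), Smarcd1 (0.10), a chromatin remodelling subunit, and Plekhg2 (0.11). Closest to Tbx3 were Slc38a7 (0.08), Snx18 (0.09) and Cmtm6 (0.10), and closest to Tbx1 were Exoc3l2 (0.28), the claudin gene Cldn15 (0.28) and Sh2d4a (0.33). Tbx4 was most like Sfrp2 (0.70), a secreted WNT antagonist, which averaged 1525 in lung, 56.3 in intestine and 1362 in bladder. Hp (0.83) and Cyp2f2 (0.88) came next.

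The candidates nearest to Tbx5 lay further off, Grhl3 (1.63), Cyp2f2 (1.75) and Cd300lb (1.80), with Pearson correlations of 0.96, 0.97 and 0.96. Gm43050, which had the same order of tissues as Tbx5, was not among the candidates. Tbx18 was nearest to Grhl3 (0.61), an epithelial factor that averaged 129 in lung, 0.667 in intestine and 229 in bladder, followed by Cd300lb (1.00) and Prss35 (1.09). Tbx20 was nearest to Trp63 (0.53), a basal urothelial factor, then Eya4 (0.74) and Msx2 (0.88). Urothelial genes, 8 in the list with Trp63 among them, summed to 15.2 and 24.4 ppm in lung, 107 to 112 ppm in intestine and 490 to 684 ppm in bladder. Upk2 and Krt5 were at 0 in lung and Krt5 in intestine. The part of urothelium in the bladder level of Tbx20 was not tested.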

How the data were processed

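RNA was extracted with the miRNeasy micro kit, and up to 10 ng was amplified with SMART-Seq v4, according to the labels' protocols. The deposited values were treated as a score. They are whole numbers spaced as if each library's reads had been multiplied by a constant and then rounded, which is read from the values and stated nowhere. The tools that the submitters' processing notes list are DESeq2 1.36.0, featureCounts 2.0.4, Picard 3.0.0, STAR 2.7.10a and Trimmomatic 0.39, with build mm39 and no role or order. Nothing more on annotation, strand or filters was stated.

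A single read was worth 0.822 to 1.27, which gave reconstructed reads for depth, floors and limma voom. The floor for a gene at 0 was 3 reads per library and covers counting error only. The filter kept 18097 genes (10 or more in 2 or more libraries). They were fitted with limma 3.58.1 (R 4.3.3) and an intensity trend on log2(value + 1), which understates changes of low genes. All 8 libraries entered 1 fit with a mean per tissue, and a count model was not used because the values are not counts. The fit and the read estimate were tested on simulated data. Exon lengths came from GENCODE M21, which covers 96.8% of gene IDs, and promoters from RefSeq, both on another assembly than the deposited coordinates.

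The members, gene lists and tests were chosen with earlier results of these data known. Named genes were, per list and pair, up to 4 members of smallest p and up to 2 against the majority, with a mean of at least 50, and the 3 nearest profiles of each T-box gene but Tbx15, whose mean was under 50 in every tissue. Overlapping genes and Acta2, Myh11 and Cspg4 were named too. Gm43050, 2610027K06Rik, Tbx3os2, Bcas3, Tbx6, Tbx21, Tbr1, Fgf10, Cdkn1a, Nppa and the marker genes given singly were added after values were seen. A gene that the rule names is not reported here. Alternatives were pseudocount, filter, scaling, limma voom, the replicate block, 2 tissues only and leaving out each library.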

Additional observations from a re-analysis of the deposited data

How the results depend on the processing

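Of 2064 values recomputed under alternatives, 2014 were taken as unchanged, 32 no longer passed, 16 newly passed and 2 counts moved. Unchanged means the same side of the threshold, or for a count a value within 1.5 times. No called value changed sign. Differences that were not called could do so, as for Tbx3 in lung minus intestine (-0.34 to 0.16). The count of T-box genes called stayed within 1.5 times its value under all alternatives. Leaving out each library gave 4 to 6 genes for lung minus intestine, 5 to 7 for lung minus bladder, 7 for intestine minus bladder and 7 to 8 for the F test. Where a lung library was left out, the lone one was assumed to vary like the other tissues. The 2 moved counts concern the other T-box genes: 1 passed in intestine minus bladder with quantile normalization, against 0, and 0 passed in lung minus bladder with the deposited scaling undone, against 1. The cause was not tested. With the replicate block, 6, 6 and 7 T-box genes passed in lung minus intestine, lung minus bladder and intestine minus bladder and 7 in the F test, and 6496, 6786 and 9040 of all genes in those pairs. Same-numbered libraries of different tissues correlated at -0.03 to 0.06 in their deviations from tissue means. The deviations of the 2 lung libraries mirror each other by construction, and each tissue has few libraries. Whether the numbers pair libraries therefore cannot be told from these values. The ratios of 2 genes passed with pseudocounts of 0.5 and 5 and without any 1 library. Tbx15 in intestine and bladder and Tbx20 in intestine had libraries under the floor of 3 reads, where depth limits the level.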
